A study of Mus musculus with 195 samples.

Results

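The 2 preparations of mouse embryonic stem cells that the series holds for 1 medium were compared gene by gene: the ESC-FCS cells of the main dataset (main cells) and a separate set of ESC-FCS control cells, made as additional libraries. All cells came from 46C, a Sox1-GFP reporter line derived from E14tg2a embryonic stem cells, grown on gelatin with 10% FBS and LIF at 10 ng/mL, and every cell was sorted singly from a gate on DNA content and size that kept small cells in G1. The agents, line and gate are thus shared. Cells were kept where the deposited file held at least 1000 molecules on genes, which left 35 of 48 main cells and 42 of 48 control cells, 77 of the 192 single cells of the series. Each preparation was made as 2 libraries of 24 cells, of which 19 and 16 main cells and 21 and 21 control cells were kept. The discarded cells held 73 to 742 molecules in the main preparation (13 cells) and 43 to 914 in the control preparation (6 cells), and the smallest kept cells held 1077 and 1323.

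Neither the labels nor the methods name separate cultures, so each preparation was 1 sample, cells were not counted as replicates, and no test was made between preparations. Intervals are exact 95% intervals that cover counting error only, and the 2 libraries of a preparation show the spread that remained between libraries. A pool of 48 ESC-FCS cells in 1 tube, made together with the control cells, and 33 ESC-2i cells, kept in LIF with 1 μM of the MEK inhibitor PD0325901 and 3 μM of the GSK3 inhibitor CHIR99021, served as points of reference. Culture, handling and library making cannot be told apart in this design.

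Mouse embryonic stem cells renew themselves in serum and LIF while expressing pluripotency factors such as Oct4, Sox2 and Nanog, and in serum some of these factors, among them Nanog and Rex1, are known to differ between cells of 1 dish. The inhibitors of 2i medium block the ERK cascade and GSK3, which lowers ERK target genes and makes such cultures more uniform. BATSeq, the method used here, primes reverse transcription on the poly(A) tail and reads the 3′ end, so that each counted molecule also carries its polyadenylation site.

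Cells of the preparations held similar numbers of molecules but differed in other technical measures. The main cells held 1077 to 14803 molecules on genes (median 5267, total 229828) and the control cells 1323 to 14547 (median 4723.5, total 223035). Main cells had 11.1 reads per molecule and control cells 6.44, and spiked-in ERCC RNA stood at a median of 39.0 molecules per 1000 gene molecules (range 23.1 to 132) in main cells and at 15.5 (4.23 to 52.3) in control cells. The ranges overlapped, while both main libraries had a higher median than both control libraries. Sites outside genes took a median of 5.59% of a main cell and 2.32% of a control cell. The part of these measures in the differences below was not tested.

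**Figure D1:**
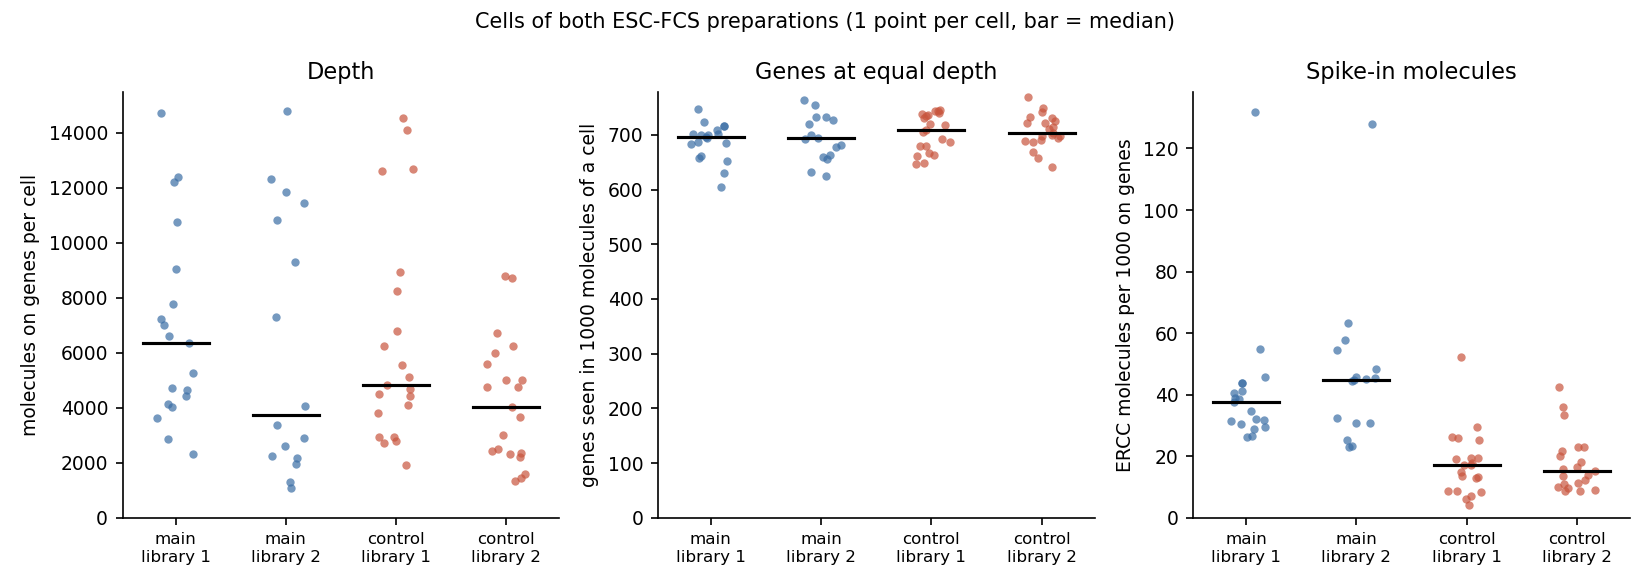
Molecules on genes per cell (left), genes seen in 1000 molecules (middle) and ERCC molecules per 1000 gene molecules (right) for each kept cell, by library, with the bar at the median. Main and control cells overlapped in the first 2 measures, with medians of 5267 and 4723.5 molecules, and had medians of 39.0 and 15.5 in the third.

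The label of embryonic stem cells was checked on marker lists. All 10 stem cell markers were seen in both preparations, and their summed level, given throughout as molecules per 10000 molecules on genes, was 32.6 and 31.7 in the main libraries and 45.9 and 43.5 in the control libraries. Markers of other cells the culture could hold were rare. Primitive endoderm markers gave 25 molecules in main cells and 20 in control cells, with 5 and 8 of 10 markers at 0, and Sparc held 12 and 17 of these. Mesoderm markers gave 2 and 1 molecules, neural markers 13 and 4, and feeder fibroblast markers 19 and 22, all of them from Vim with 9 of 10 markers at 0 in both. None of 10 markers of 2-cell-like cells had a molecule. Pou5f1, the gene of Oct4, gave 4 and 2 molecules and could not be compared.

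All libraries used the same set of 24 cell barcodes, and the control libraries carried the batch barcodes of the ESC-2i libraries. For 28 control cells a kept ESC-2i cell had both barcodes in common. Over these 28 pairs the mean correlation of a control cell with its barcode partner was 0.338, against 0.341 with the other ESC-2i cells. Among the kept main and control cells, 0 had the same gene counts as another cell. ESC-2i cells were not part of that comparison. Lefty1 and Dusp6, which were at 0 in all ESC-2i cells, were present in control cells. Cells were sorted singly into wells and no doublet caller was run.

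Single cells were closer to cells of their own preparation. Each cell was thinned to 1000 molecules and its genes compared on the scale log10(molecules + 1). Pearson correlations across genes averaged 0.400 and 0.392 within the main libraries and 0.391 between them, and 0.376 and 0.374 within the control libraries and 0.373 between them. Pairs of 1 control and 1 main cell averaged 0.359 (SD 0.0337 over 1470 pairs), against 0.342 for control with ESC-2i cells and 0.379 for main with ESC-2i cells. The most similar other ESC-FCS cell came from the own preparation for 31 of 35 main cells (88.6%, interval 73.3 to 96.8) and 40 of 42 control cells (95.2%, 83.8 to 99.4). All these averages lay within 2 SD of one another, so the order shows in averages over many pairs and not in a single pair. Differences in the assignment of ends to genes, described below, enter these correlations. Snord72, for example, was seen in 35 of 35 main cells and 0 of 42 control cells. The part of such genes in the closeness of cells was not tested.

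Gene levels differed between preparations by more than between libraries of 1 preparation. Of 15888 genes seen, 10399 were seen in both preparations, and the 1695 genes with at least 50 molecules over both were compared. A gene was called where the pooled levels differed at least 2-fold and all 4 ratios of a control to a main library lay on the same side of 1. This called 339 genes (20.0%), 223 higher in control cells (13.2%) and 116 lower (6.84%). The fold alone was passed by 345 genes (20.4%), and the libraries did not overlap in 1011 (59.6%). The median log2 ratio of control over main was 0.13, with quartiles of −0.36 and 0.63, and scaling by TMM factors moved it to 0.02 and the share of calls that were higher from 65.8% to 54.4%.

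After each library was thinned to 88516 molecules, 2.07% of genes lay past 2-fold between the control libraries and 5.57% between the main libraries. Between a control and a main library the share was 18.3 to 23.6% (mean 21.4%), and between an ESC-2i and a main library 14.5 to 18.2% (mean 15.9%). ESC-2i and control libraries differed most, at 28.8 to 37.2% (mean 32.6%). Positions listed under more than 1 gene took 1.87 to 2.46% of molecules in main and ESC-2i libraries, but at most 0.00226% in control libraries. Ends before bases rich in A, described below, were likewise more frequent in main and ESC-2i libraries (2.70 to 3.34%) than in control libraries (0.990 and 0.995%). The part of these listings and ends in the shares past 2-fold was not tested. Across the 1695 genes the Pearson correlation of log10(molecules + 1) between the pooled preparations was 0.68. It was 0.85 over 19316 genes, a number that includes genes at 0 in both.

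**Figure D2:**
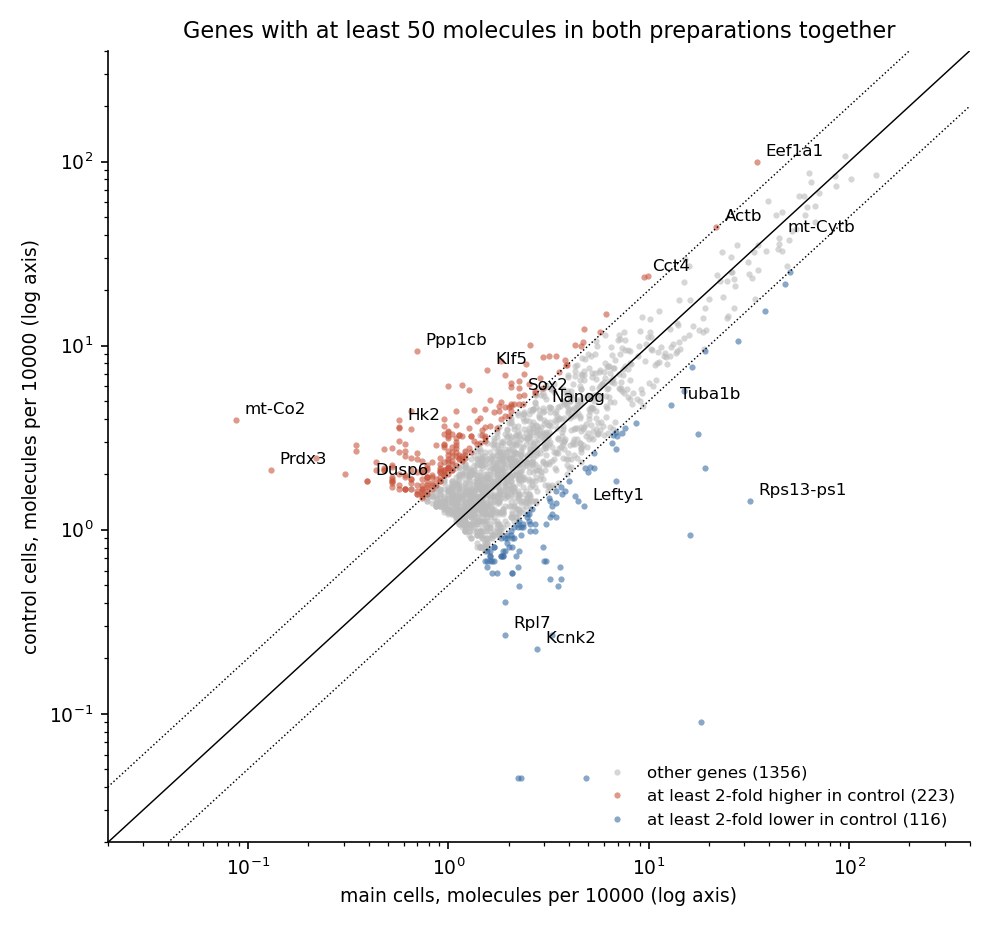
Level of each gene in pooled main cells (x axis) and pooled control cells (y axis), in molecules per 10000 molecules on genes on log axes, with the 223 genes called higher and the 116 called lower in control cells in colour. Points drawn are the 1689 of 1695 genes with a molecule in both preparations, and most of them lie near the diagonal.

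The 12 genes with the largest ratios, leaving out genes in which a single cell held over 25% of the molecules, were the mitochondrial genes mt-Tl2 and mt-Co2, treated further below, and 10 protein-coding genes of the nucleus. The most used 3′ ends of 4 of these are shown, with those of 2 genes described later, because the counts rest on them. Each line gives the 30 bases that end at the most used site, read on the transcript, with the last AATAAA, or else ATTAAA, in capitals; these are the hexamers that direct cleavage and polyadenylation. The sequences are of GENCODE M21 transcripts on GRCm38, at chr19:60864068-60864097 (minus strand), chr5:32492724-32492753 (plus), chr11:79239386-79239415 (minus), chr6:82725029-82725058 (minus), chr3:104657224-104657253 (plus) and chr14:99314996-99315025 (plus), in the order of the lines and each in the last exon of the gene in that annotation.
Prdx3: atatatagaataaaAATAAAcattaaaata
Ppp1cb: tctcatttagtaaaagttgtctaattgata
Wsb1: gagtttttttaATTAAAcgacacaaaacta
Hk2: attattAATAAAttttaacttttttttttc
Slc16a1: tttccaAATAAAacatttattttattttta
Klf5: aacttttttttttttgaaAATAAAaagtgc
The end of Ppp1cb, which holds neither hexamer in this window, took 200 of its 209 molecules in control cells and 11 of 16 in main cells. The deposited site classes put all 209 control and 13 of 16 main molecules of Ppp1cb in the last exon, away from annotated ends. They put 163 of 164 control and 34 of 36 main molecules of Klf5 downstream of the gene. Over the 1575 genes tested whose most used end lay in a last exon, 72.2% of windows held AATAAA, 14.5% ATTAAA alone and 13.3% neither. Of 205 such genes called higher, 71.2% held AATAAA, and of 88 called lower, 69.3%, so the hexamer was about as frequent on either side.

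Ppp1cb, which encodes a catalytic subunit of protein phosphatase 1, stood at 0.768 and 0.602 molecules per 10000 in the main libraries and at 9.14 and 9.72 in the control libraries. This was 13.5-fold higher in control cells (interval 8.10 to 24.0), and molecules were seen in 38 of 42 control cells but in 12 of 35 main cells. Prdx3, a peroxiredoxin of mitochondria, had 3 molecules in main cells (libraries at 0.0768 and 0.201) and 47 in control cells (1.93 and 2.37), a ratio of 16.1 with an interval of 5.20 to 81.1. Wsb1, a substrate receptor of a ubiquitin ligase, had 5 molecules (0.154 and 0.301) and 55 (2.38 and 2.60), an 11.3-fold difference (4.57 to 36.3). In all 3 genes the pool (8.77, 1.90 and 3.52) lay near the control libraries and ESC-2i cells (0.896, 0.353 and 0.652) near the main libraries.

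The other protein-coding genes of that list were 6.34 to 8.24-fold higher in control cells. They were Gpbp1l1, with 8 molecules in main and 64 in control cells, the poly(A)-binding protein gene Pabpc4 with 8 and 60, Qrich1 with 13 and 88, the septin gene Sept7 with 15 and 99, the actin-binding Triobp with 7 and 45, Mreg with 13 and 80, and Hk2. Hk2, a hexokinase that starts glycolysis, stood at 0.614 and 0.502 in main libraries and at 3.64 and 3.62 in control libraries, 6.42-fold higher (3.55 to 12.6). In the pool Hk2 was at 2.01, Pabpc4 at 2.29 and Triobp at 0.949, below both control libraries, whereas Gpbp1l1, Qrich1, Sept7 and Mreg stood higher in the pool (4.08, 5.64, 5.30 and 4.58) than in the pooled control cells (2.87, 3.95, 4.44 and 3.59).

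**Figure D3:**
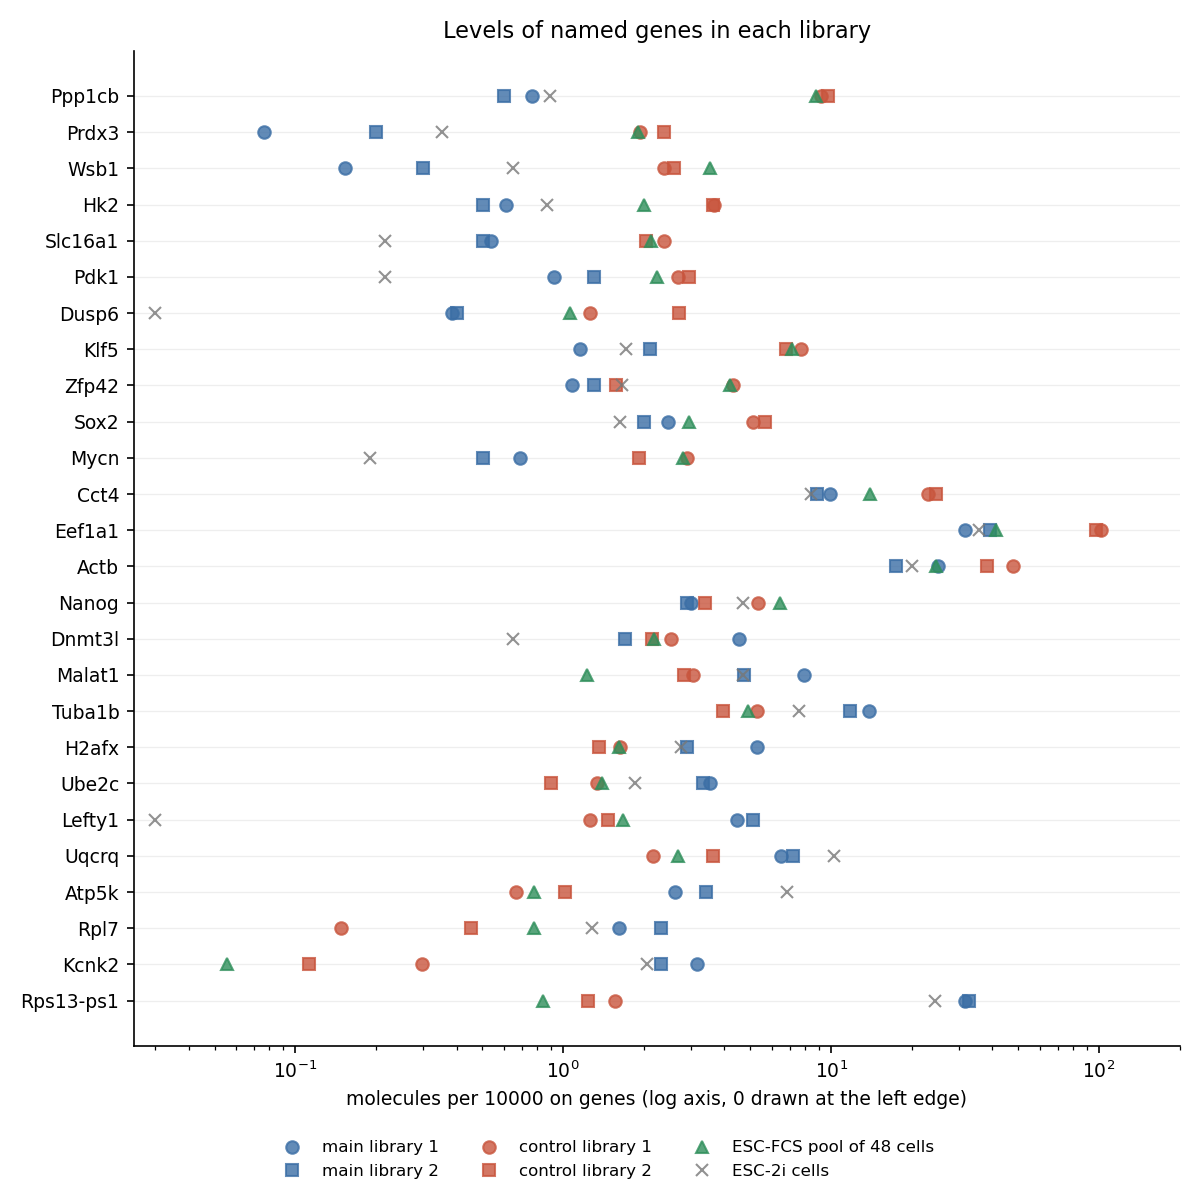
Level of 26 genes in each of the main and control libraries, in the pool of 48 cells and in ESC-2i cells, in molecules per 10000 molecules on genes on a log axis; values of 0 (Lefty1 and Dusp6 in ESC-2i cells) stand at the left edge. The control libraries lie right of the main libraries for Ppp1cb (9.14 and 9.72 against 0.768 and 0.602) and left of them for Rps13-ps1 (1.56 and 1.24 against 31.7 and 32.7).

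The 12 genes with the smallest ratios were 4 small nucleolar RNAs, 3 mitochondrial transfer RNAs and 5 other genes. Snord72 had 1012 molecules in main cells (50.5 and 35.5 per 10000 in the libraries) and 0 in control cells, at least 327-fold lower when set against a floor of 3 molecules. Snora75, with 168 and 0 molecules, and Gm24051, with 64 and 0, were at least 54.3-fold and 20.7-fold lower. The end of Gm24051 was listed under no other gene name. Snord72 and Snora75 lie inside the host genes Rpl37 and Ncl, and their molecules in main cells sat at the hosts' own 3′ ends, so that the same end was listed under host and small RNA at once. The end of Rpl37 is printed to show that it holds the AATAAA hexamer, at chr15:5118641-5118670 (plus strand), with capitals as above.
Rpl37: ttcaatcagtcataaAATAAAtgttctgct
Counted once and under any gene name, the Rpl37 end held 1097 molecules in main and 725 in control cells (log2 ratio −0.55), and the Ncl end 161 and 116 (−0.43). Neither lay past 2-fold. Positions listed under more than 1 gene took 2.43 and 1.94% of molecules in the main libraries and 2.46 and 1.87% in the ESC-2i libraries, but 0 and 0.00226% in the control libraries and 0% in the pool. The assignment of ends to genes thus differed between the deposited files of the preparations.

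To see how far this reached, the most used end of each called gene was counted under any gene name. The end was also past 2-fold on the same side for 208 of 222 genes called higher (93.7%) and for 101 of 116 called lower (87.1%). Among the exceptions were mt-Co2 and mt-Tl2, genes of the mitochondrial genome, where several ends were listed under more than 1 gene name. There mt-Tg had 351 molecules in main cells and 0 in control cells, mt-Tf 417 and 2 (202-fold lower, 55.7 to 1676), mt-Tm 368 and 21 (17.0-fold lower, 11.0 to 27.8), mt-Co2 2 and 88 (45.3-fold higher, 12.2 to 380) and mt-Tl2 0 and 67 (at least 23.0-fold higher). Ends near position 13889 of the mitochondrial genome were listed mainly under mt-Tg and mt-Tm in main cells and under mt-Co2 and mt-Tl2 in control cells, and in sum they held 202 molecules in main and 31 in control cells (log2 ratio −2.66), the reverse of the call for mt-Co2 and on the side of the calls for mt-Tg and mt-Tm. The most used end of mt-Tf, with 78 and 0 molecules, was listed under no other name. Almost all molecules of these transfer RNA genes in main cells lay at sites downstream of the gene (351 of 351 for mt-Tg, 415 of 417 for mt-Tf, 356 of 368 for mt-Tm). Counted in fixed windows of positions, the end of mt-Nd4 fell in 11520 to 11539 in main cells (697 molecules, 0 in control cells). In control cells it fell in 11540 to 11559 (534, and 0 in main cells). These windows adjoin, so the size of the shift cannot be read from the counts and may be a few bases.

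Summed over all its gene names, the mitochondrial genome was lower in control cells, at 109 and 124 per 10000 against 207 and 178 in the main libraries. The pooled levels were 115 (interval 110 to 119) and 194 (189 to 200), and the libraries did not overlap. With each position of a cell counted once, an alternative chosen after seeing the data, the level in main cells was 186 (181 to 192) and that in control cells stayed at 115. Over the 15 genes of the mitochondrial list alone it was 133 in main and 107 in control cells. The pool stood at 95.6 and the ESC-2i libraries at 172 and 172. Per cell the mitochondrial share ran from 0.209 to 7.04% in control cells and from 0.522 to 4.49% in main cells, so the cells overlapped. The methods describe the removal of mitochondrial reads, which were nonetheless present in these files.

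The remaining genes of the lower list were Rps13-ps1, Kcnk2, Gm10327, Fam186a and Lrrd1. Rps13-ps1, a pseudogene of ribosomal protein S13, stood at 31.7 and 32.7 in the main libraries and at 1.56 and 1.24 in the control libraries, 22.4-fold lower (15.7 to 33.0), with 0.837 in the pool and 24.4 in ESC-2i cells. Kcnk2, a potassium channel gene, had 64 molecules in main and 5 in control cells (12.4-fold lower, 5.05 to 39.6), and Gm10327 had 76 and 6. Fam186a gave 53 and 1 molecules and Lrrd1 51 and 1. All molecules of Kcnk2 lay in an intron and all those of Fam186a and Lrrd1 downstream of the gene, so these are counts at such sites and not at the annotated ends. Of the 36 pseudogenes tested 16 were lower and 2 higher, against 90 lower and 216 higher of 1625 protein-coding genes. Reads of pseudogenes and their parents are near identical, and Rps13 itself was also lower (1.23 and 2.11 against 0.966 and 0.452, 2.11-fold, 1.16 to 4.00), so these counts are uncertain.

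The end of Rps13-ps1, at chr8:87048179-87048208 (plus strand), is shown because the bases after it are rich in A.
Rps13-ps1: ctgttgtgtgcacaagcAATAAAatcactt
It held 706 of 739 molecules in main cells and 17 of 32 in control cells, and 73.3% of the next 15 bases were A. Ends in last exons that did not lie close to the end of the transcript were then searched for such bases. The end of Rps13-ps1 itself lay too close to be among them. Ends followed by over 60% A in 15 bases took 3.34 and 2.70% of the molecules searched in the main libraries. The share was 3.19 and 2.85% in the ESC-2i libraries, 0.995 and 0.990% in the control libraries and 0.743% in the pool. Sites within 10 bases of an annotated end took 52.4% of molecules in main and 63.0% in control cells, introns 1.97 and 0.850%, sites outside genes 5.79 and 2.34%, and sites antisense to a gene 0.335 and 0.0835%. The part of these site classes in the gene differences was not tested beyond the count of ends above, and 304 genes were called when only sites in last exons or at annotated ends were used.

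The ratio of control to main went along with transcript length and base composition. Over 1617 genes, by the length of the longest coding transcript, the median log2 ratio was −0.76 for transcripts of up to 700 nt (81 genes, of which 25 were lower and 1 higher), −0.36 for 700 to 1000 nt, 0.08 for 1000 to 2000 nt, 0.23 for 2000 to 3000 nt, 0.32 for 3000 to 4000 nt, 0.38 for 4000 to 6000 nt and 0.40 above 6000 nt. By the GC content of the last 500 nt the median fell in each step from 0.71 at up to 35% (196 genes, 64 higher and 3 lower) to −0.33 above 55% (137 genes, 2 higher and 17 lower). Spearman's rho across genes was 0.33 with length and −0.38 with GC content, which were themselves correlated (−0.41). Genes are not independent replicates, so these values describe the libraries.

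Libraries of 1 preparation differed little in this respect. For transcripts of up to 1000 nt and of over 4000 nt, the median log2 ratio was 0.17 and −0.05 between the main libraries and 0.10 and −0.05 between the control libraries, but −0.50 and 0.39 for control over main. For the pool over main cells it was −0.68 and 0.44, and for ESC-2i over main cells 0.00 and −0.21. Among 18 ERCC transcripts with enough molecules, the 5 ending at up to 600 nt had a median log2 ratio of 0.22 (−0.42 to 0.60) and the 12 between 600 and 1000 nt one of −0.30 (−4.60 to 1.83). The 1 transcript ending beyond 1000 nt was at −0.38. The medians thus fell with length, but the ranges overlapped. All 18 ends lay between 460 and 1038 nt, so ERCC transcripts cannot speak for the longer transcripts above.

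**Figure D4:**
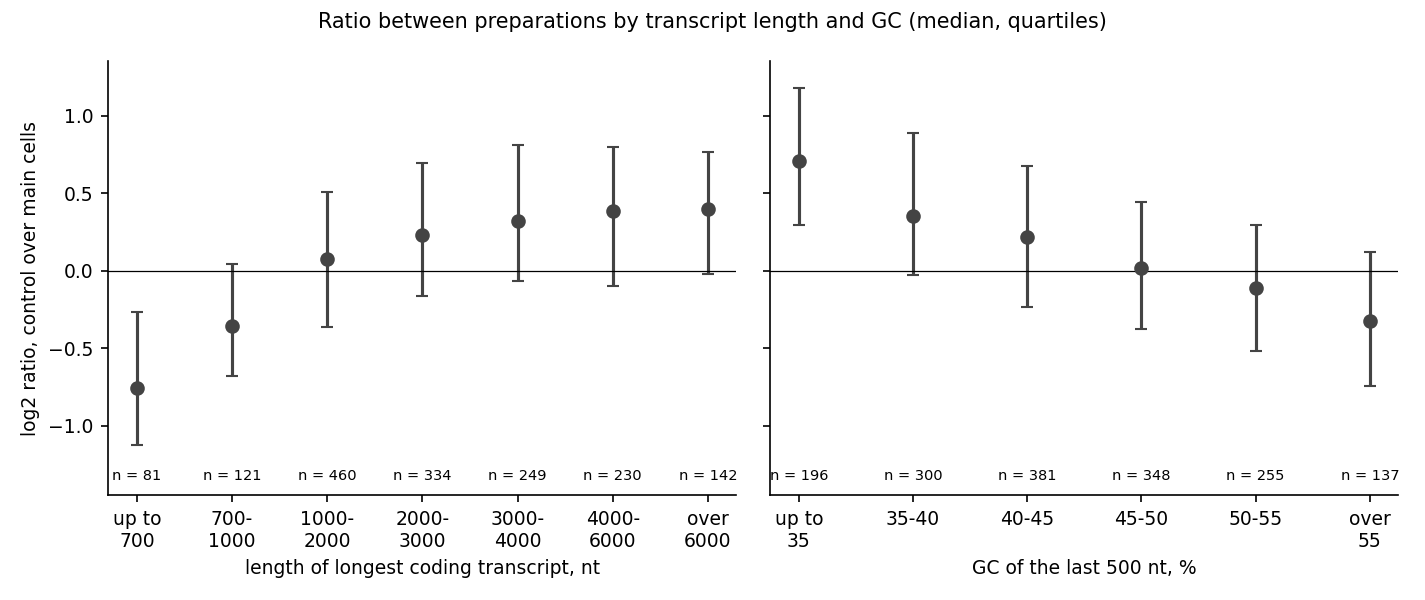
Log2 ratio of control over main level by class of transcript length in nt (left) and of GC content of the last 500 nt in % (right), with the median as a point and the quartiles as a line. The median climbs from −0.76 to 0.40 with length and falls from 0.71 to −0.33 with GC content.

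Among pluripotency genes Klf5, Zfp42 and Sox2 were higher in control cells and Lefty1 was lower. List medians are given relative to the median of all genes tested, and none of them is a test. Of 12 naive pluripotency genes tested 2 were higher and 0 lower (median 0.35), and 10 had a positive log2 ratio. Klf5, a Krüppel-like factor that supports self-renewal, stood at 1.15 and 2.11 in the main libraries and at 7.73 and 6.78 in the control libraries, 4.69-fold higher (3.26 to 6.93). Its main end, shown above and classed downstream of the gene on deposition, held 162 molecules in control and 34 in main cells. Zfp42, which encodes the naive marker Rex1, stood at 1.08 and 1.30 in main and at 4.31 and 1.58 in control libraries, 2.75-fold higher (1.74 to 4.45). Control library 1 carried most of this, and without it the log2 ratio of Zfp42 was 0.43. The naive list median was likewise 0.05 without control library 1. With the median of a gene's length and GC class taken off, an alternative chosen after seeing the data, the log2 ratios of Klf5, Zfp42 and Sox2 were 1.48, 0.80 and 0.48, of which only that of Klf5 reached the fold.

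Of 8 core and formative pluripotency genes 1 was higher and 0 lower (median −0.28). This was Sox2, the partner of Oct4, at 2.46 and 2.01 in main and 5.13 and 5.65 in control libraries, 2.36-fold higher (1.69 to 3.33). Nanog, at 3.00 and 2.91 against 5.35 and 3.39, was 1.55-fold higher (1.13 to 2.13) and did not reach the fold. Esrrb, at 6.22 and 6.02 against 5.95 and 4.41, and Utf1, at 7.76 and 6.93 against 4.98 and 6.78, lay slightly lower. The de novo methyltransferase gene Dnmt3b was 1.87-fold lower, at 2.30 and 2.01 against 1.26 and 1.02. The stem cell marker list as a whole had 2 of 8 genes higher, 0 lower and a median of 0.62. These shares, of few genes, compare with 13.2% higher and 6.84% lower over all genes.

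Lefty1, a secreted inhibitor of Nodal signalling, was lower in control cells with or without that adjustment (log2 ratio −1.72 with it). It stood at 4.45 and 5.12 in the main libraries and at 1.26 and 1.47 in the control libraries, 3.53-fold lower in control cells (2.34 to 5.47), and was the 1 called gene of 3 tested in the Nodal list. The pool, at 1.68, lay with the control libraries, and ESC-2i cells had no molecule. Molecules of Lefty1 were seen in 27 of 35 main cells (77.1%) and 10 of 42 control cells (23.8%), and the 3 highest cells held 46.8 and 63.3% of them. The end at chr1:180938368-180938397 (plus strand), printed because the whole difference rests on this 1 site, held 109 of 109 molecules in main cells and 29 of 30 in control cells.
Lefty1: tgctagatgtgAATAAAatatgctttgttt

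Signalling targets were mostly too few to describe as lists. Of the ERK targets 2 were tested and 1 was higher, the ERK phosphatase gene Dusp6, at 0.384 and 0.402 in main and 1.26 and 2.71 in control libraries (4.69-fold, 2.25 to 11.0), with 1.06 in the pool. Dusp6 had 9 molecules in main and 41 in control cells, so it met the minimum of 50 only through the control cells. Of 3 LIF and BMP targets the kinase gene Pim1 was higher, at 0.538 and 0.703 against 2.08 and 1.02 (2.72-fold). No Wnt target reached 50 molecules, with 40 molecules over the list in main and 45 in control cells. Neither of 2 immediate early genes nor any of 5 p53 targets was called, although all 5 p53 targets had a positive ratio (median 0.56). Among 6 ATF4 targets Atf4 itself was higher, at 1.08 and 0.903 against 1.86 and 2.60 (2.15-fold, 1.28 to 3.70). Without control library 1 the log2 ratio of Pim1 was 0.74, and without control library 2 that of Atf4 was 0.89, both below the fold. No gene of 5 for metallothionein and iron storage or of 5 for cholesterol synthesis was called (medians −0.36 and −0.22).

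Of 15 glycolytic genes tested 4 were higher in control cells and 0 lower, beside 13.2% higher and 6.84% lower over all genes. Of the 15, 14 had a positive ratio and the median was 0.48, and the summed level was 82.7 and 75.9 in the main libraries, 116 and 112 in the control libraries, 123 in the pool and 76.6 in ESC-2i cells. Beside Hk2 the called genes were the lactate transporter gene Slc16a1, at 0.538 and 0.502 against 2.38 and 2.03 (4.29-fold, 2.25 to 8.86), the phosphofructokinase gene Pfkp, at 1.08 and 1.10 against 2.97 and 2.71 (2.64-fold), and Pdk1, whose product inhibits pyruvate dehydrogenase, at 0.922 and 1.30 against 2.68 and 2.94 (2.56-fold, 1.58 to 4.24). Gapdh was 1.71-fold higher, at 18.8 and 12.0 against 29.3 and 23.7. Tpi1, at 2.23 and 4.42 against 2.45 and 2.03, was the member with the lowest ratio. After the length and GC adjustment the log2 ratios of Pfkp and Pdk1 were 0.77 and 0.92, below the fold. In Pdk1 the most used end differed as well, with 51 of 62 molecules in control cells but 7 of 25 in main cells at position 71901982 of chromosome 2, and 7 and 10 at position 71903844.

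Of 27 nuclear genes of the respiratory chain 6 were lower in control cells and 1 higher, beside 6.84% lower and 13.2% higher over all genes. Of the 27, 24 had a negative ratio and the median was −0.70, and the summed level was 175 and 205 in the main libraries, 142 and 142 in the control libraries, 127 in the pool and 216 in ESC-2i cells. Atp5k, a small subunit of ATP synthase, stood at 2.61 and 3.41 against 0.669 and 1.02 (3.67-fold lower, 2.16 to 6.55), and Uqcrq, a subunit of complex III, at 6.53 and 7.23 against 2.16 and 3.62 (2.50-fold lower, 1.85 to 3.41). After the adjustment for length and GC content the list median was −0.32. Ndufa4, at 3.38 and 4.62 against 7.21 and 8.81, was the 1 gene higher (2.00-fold). Several of these calls rested on single libraries: the log2 ratio of Ndufa4 was 0.76 without main library 1 and 0.88 without control library 2, and that of Uqcrq −0.92 without control library 1. Of the other lower genes Ndufa2, Ndufb2 and Cox8a were at −0.88, −0.86 and −0.61 without main library 2, Ndufb2 at −0.57 without control library 1 and Cox8a at −0.84 without control library 2. The end of Atp5k, at chr5:108433255-108433284 (minus strand), is printed because 1 end carries the gene.
Atp5k: tcgttgagaacgAATAAAgcttcattgtgt
This end held every molecule of Atp5k in both preparations, 68 and 18.

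Genes of the translation machinery split. Of 38 cytosolic ribosomal protein genes 4 were lower and 1 higher (median −0.37, or −0.06 after the length and GC adjustment), and their summed level was 1408 and 1399 in the main libraries, 1180 and 1243 in the control libraries and 777 in the pool. Rpl7 (1.61 and 2.31 against 0.149 and 0.452) was 7.12-fold lower (3.02 to 20.4) and Rps15 (16.8 and 16.1 against 8.40 and 6.55) 2.15-fold lower, with a log2 ratio of −0.97 without control library 2 and of −0.27 after the length and GC adjustment. Rpl28 (1.23 and 5.32 against 0.669 and 0.678) was lower mainly through main library 2, without which its log2 ratio was −0.87. Rps23 was 2.20-fold higher. Eef1a1, the elongation factor that brings aminoacyl-tRNA to the ribosome, stood at 31.6 and 39.0 against 101 and 97.2 (2.86-fold, 2.64 to 3.10), but at 41.3 in the pool and 35.7 in ESC-2i cells. For Eef1a1 the pool thus lay with the main libraries. Its sites went opposite ways, with 328 molecules in main and 2216 in control cells within 10 bases of an annotated end. At sites near an annotated end but further off it had 470 and 5. These families have many processed copies, and reads may be split between them.

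Of 14 nucleolar and growth genes 2 were higher and 0 lower (median 0.13), Eef1a1 and the Myc family gene Mycn, at 0.691 and 0.502 against 2.90 and 1.92 (4.12-fold, 2.26 to 8.02). Of 16 heat shock and chaperone genes Cct4, a chaperonin subunit, was higher, at 9.91 and 8.83 against 23.0 and 24.6 (2.50-fold, 2.13 to 2.94; 14.0 in the pool), and the ER chaperone gene Hspa5 was lower, at 3.00 and 1.91 against 1.41 and 0.904. Without main library 1 or control library 2 the log2 ratio of Hspa5 was −0.66 or −0.84, below the fold. Among 19 proteasome genes Psmb7 was higher, at 2.84 and 3.11 against 8.85 and 8.47 (2.94-fold), and none was lower. The sites of Psmb7 went opposite ways. Within 10 bases of an annotated end it had 15 molecules in main and 174 in control cells, and further off but near such an end 53 and 20. The 7 genes tested of the mitochondrial genome list had a median of −0.49, with mt-Co2 as their 1 call.

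Cell cycle lists were read beside the G1 gate that both preparations passed. Of 15 S phase genes 2 were higher and 0 lower (median 0.20), beside 13.2% higher over all genes. They were the replication clamp gene Pcna, at 3.76 and 4.02 against 8.55 and 6.89, and Uhrf1, which maintains DNA methylation, at 1.38 and 1.71 against 3.35 and 2.82. Of 8 G2 and M phase genes 1 was higher and 2 lower, and the summed level was 27.9 and 26.4 in main and 28.9 and 23.8 in control libraries. Ube2c, an E2 of the anaphase-promoting complex, was 2.95-fold lower (1.87 to 4.79), at 3.53 and 3.31 against 1.34 and 0.904, and the spindle gene Tpx2 2.52-fold lower, whereas the cyclin gene Ccnb2 was 2.06-fold higher. These calls lay close to the fold for some genes: without main library 1 or control library 1 the log2 ratio was 0.97 or 0.83 for Pcna and 0.88 or 0.89 for Uhrf1, without control library 1 it was 0.58 for Ccnb2, and without the largest cell of each preparation it was −0.91 for Tpx2. The calls of the G2 and M list thus lay on both sides.

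Cytoskeletal, histone and noncoding RNA genes held calls on both sides. Of 15 actin and cytoskeleton genes 3 were higher, Actb (25.0 and 17.5 against 47.9 and 38.1, 2.02-fold, 1.81 to 2.26), the actin-binding Pfn1 (2.92-fold) and Tagln2 (2.75-fold, with main library 2 at 1.30 and library 1 at 0.384). Actb did not reach the fold without main library 2 or without control library 1, and stood at 24.6 in the pool. After the length and GC adjustment the log2 ratios of Actb, Cct4 and Pcna were 0.76, 0.93 and 0.37, below the fold. Tuba1b (13.9 and 11.7 against 5.28 and 3.95) and Tuba1a were lower, genes whose coding sequences are near identical. The sites of Tuba1b went opposite ways. Within 10 bases of an annotated end it had 55 molecules in main and 101 in control cells. At sites near an annotated end but further off it had 242 and 4, and the call rests on these. Of 6 histone genes H3f3a (2.97-fold) and H2afy (2.42-fold) were higher and H3f3b (2.13-fold) and H2afx, the histone of DNA damage foci (2.80-fold), were lower, where H3f3a and H3f3b encode the same protein. Of 7 long noncoding RNAs the snoRNA hosts Zfas1 (2.25-fold) and Snhg5 (2.17-fold) were higher and Malat1, a nuclear RNA, was lower, at 7.91 and 4.72 against 3.05 and 2.82 (2.21-fold). The sites of Zfas1 and H2afy also went opposite ways. Within 10 bases of an annotated end they had 14 and 12 molecules in main and 114 and 51 in control cells. Near such an end but further off they had 41 and 11 in main and 6 and 2 in control cells. Without main library 1 the log2 ratio of Malat1 was −0.67, that of Tagln2 0.72, and those of Tuba1a, H3f3b and H2afx −0.91, −0.99 and −0.93. Without control library 1 Zfas1 was at 0.84 and Snhg5 at 0.99, the latter likewise without main library 2, and without control library 2 Tuba1a was at −0.84.

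Detection per cell depended on the depth at which it was read. In all molecules a main cell showed a median of 2504 genes and a control cell 2279.5. At 1000 molecules per cell the medians were 695 and 706.5, with means of 691 ± 37.3 (SD, 35 cells) and 705 ± 31.9 (SD, 42 cells), a difference smaller than the SD between cells. At that depth 157 genes were seen in at least 50% of main cells and 177 in at least 50% of control cells. Of the 1695 genes 54 (3.19%) were seen in a share of control cells at least 25 percentage points above that of main cells, and 42 (2.48%) in a share at least 25 points below. Unthinned, 86 genes lay above and 130 below.

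Several genes named above were among those with wide gaps. At 1000 molecules Ppp1cb was seen in 0 of 35 main cells (interval up to 10.0%) and in 26 of 42 control cells (61.9%, 45.6 to 76.4). Klf5 was seen in 4 main cells (11.4%) and 26 control cells (61.9%), and Lefty1 in 12 main cells (34.3%) and 2 control cells (4.76%). Rps13-ps1 was seen in 34 of 35 main and 7 of 42 control cells. Beyond the naming rule, and picked after their values were seen, Ranbp1, a regulator of the Ran GTPase, was seen in 10 main cells (28.6%) and 33 control cells (78.6%), and the repressor gene Rest in 4 and 24. In all molecules Zfp42 was seen in 11 of 35 main and 25 of 42 control cells, of which 17 of 21 were in control library 1 and 8 of 21 in library 2.

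Variation between cells was tested within each preparation, where cells are the units. The squared coefficient of variation (CV2) of each gene was compared with the noise fitted to ERCC transcripts (Brennecke test, adjusted by the Benjamini-Hochberg method over all genes tested, called below 0.1). In main cells 76 of 2371 genes were called (3.21%) and in control cells 111 of 2089 (5.31%). The calls shared 6 genes, 7.89% of the main and 5.41% of the control calls, while 27 of the main and 68 of the control calls were of genes tested in both. Whether a gene varied more in one preparation than in the other was not tested. The ERCC fit rested on 9 and 7 transcripts, and 50 of the 76 and 49 of the 111 genes had their highest normalized value in a cell of under 2000 molecules, of which there were 3 and 4. On simulated cells that differed by counting alone the test also made calls, and far fewer with Poisson noise and cells of at least 2000 molecules. The 76 and 111 calls and their adjusted p may thus include genes that differ between cells by counting alone. Under those stricter settings, added after seeing the data, 63 and 107 genes were called and 12 in both, among them Dnmt3l, Lefty1, Malat1, Mt1 and Peg10.

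The 6 genes called in both preparations were Dnmt3l, Malat1, Igfbp2, Insig1, Uchl3 and mt-Rnr2. Dnmt3l, a cofactor of de novo DNA methylation, had a CV2 of 5.33 in main cells (Brennecke test, adjusted p = 2.8e-17) and 2.57 in control cells (adjusted p = 0.029), and 24 of its 76 molecules in main cells lay in 1 cell. Its libraries stood at 4.53 and 1.71 in main and 2.53 and 2.15 in control cells, so the main libraries differed more from each other than the preparations did. Malat1 was seen in 30 of 35 main cells (85.7%) and 22 of 42 control cells (52.4%), with adjusted p of 0.0113 and 1.35e-07 in the Brennecke test. Igfbp2, an insulin-like growth factor binding protein gene, had adjusted p of 0.0130 and 0.000221 in the Brennecke test, and Insig1, a sterol-regulated brake on cholesterol synthesis, 0.00126 and 0.00273. The normalized mean of Igfbp2 was 0.997 and 3.09 in the main libraries and 0.821 and 2.51 in the control libraries. That of Insig1 was 1.51 and 1.76 in main and 3.04 and 1.20 in control libraries. The test takes both libraries together, so such differences enter the CV2. Uchl3 (0.0666 and 0.0177) and the mitochondrial ribosomal RNA mt-Rnr2 (0.0647 and 0.0332) lay closer to the threshold of the Brennecke test. Under the stricter settings Insig1 and Uchl3 were not called in main cells (Brennecke test, adjusted p of 0.891 and 1) and Igfbp2 not in control cells (0.224). None of the 6 genes was called in both preparations without library 1 of each, and Dnmt3l and Malat1 were without library 2. Without library 1 the adjusted p of Dnmt3l in the Brennecke test was 0.969 in main and 1.00 in control cells, and that of Malat1 0.268 and 0.404.

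Nanog, Zfp42 and Sox2 were not called here. By a test of the same kind the paper reports Nanog and Rex1 as variably expressed in ESC-FCS cells. It reports still higher variability for Lefty1 and Dnmt3l. The noise fit and the set of cells used here were not matched to those of the paper. Nanog had a CV2 of 1.36 in main and 1.18 in control cells, and Zfp42 of 3.30 and 1.55, with adjusted p in the Brennecke test of 1 and 0.776 for Nanog and of 1 and 0.992 for Zfp42. Sox2 was at 1 in both. With no margin on CV2, Nanog and Sox2 passed in control cells (Brennecke test, adjusted p of 0.0206 and 0.0355) and not in main cells (0.221 and 0.989), and Zfp42 in neither (0.764 in main and 0.114 in control cells). Means were 0.641 to 2.54 normalized molecules per cell for these 3 genes. Lefty1 had adjusted p of 0.255 in main and 0.0971 in control cells, where 9 of its 30 molecules lay in 1 cell.

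**Figure D5:**
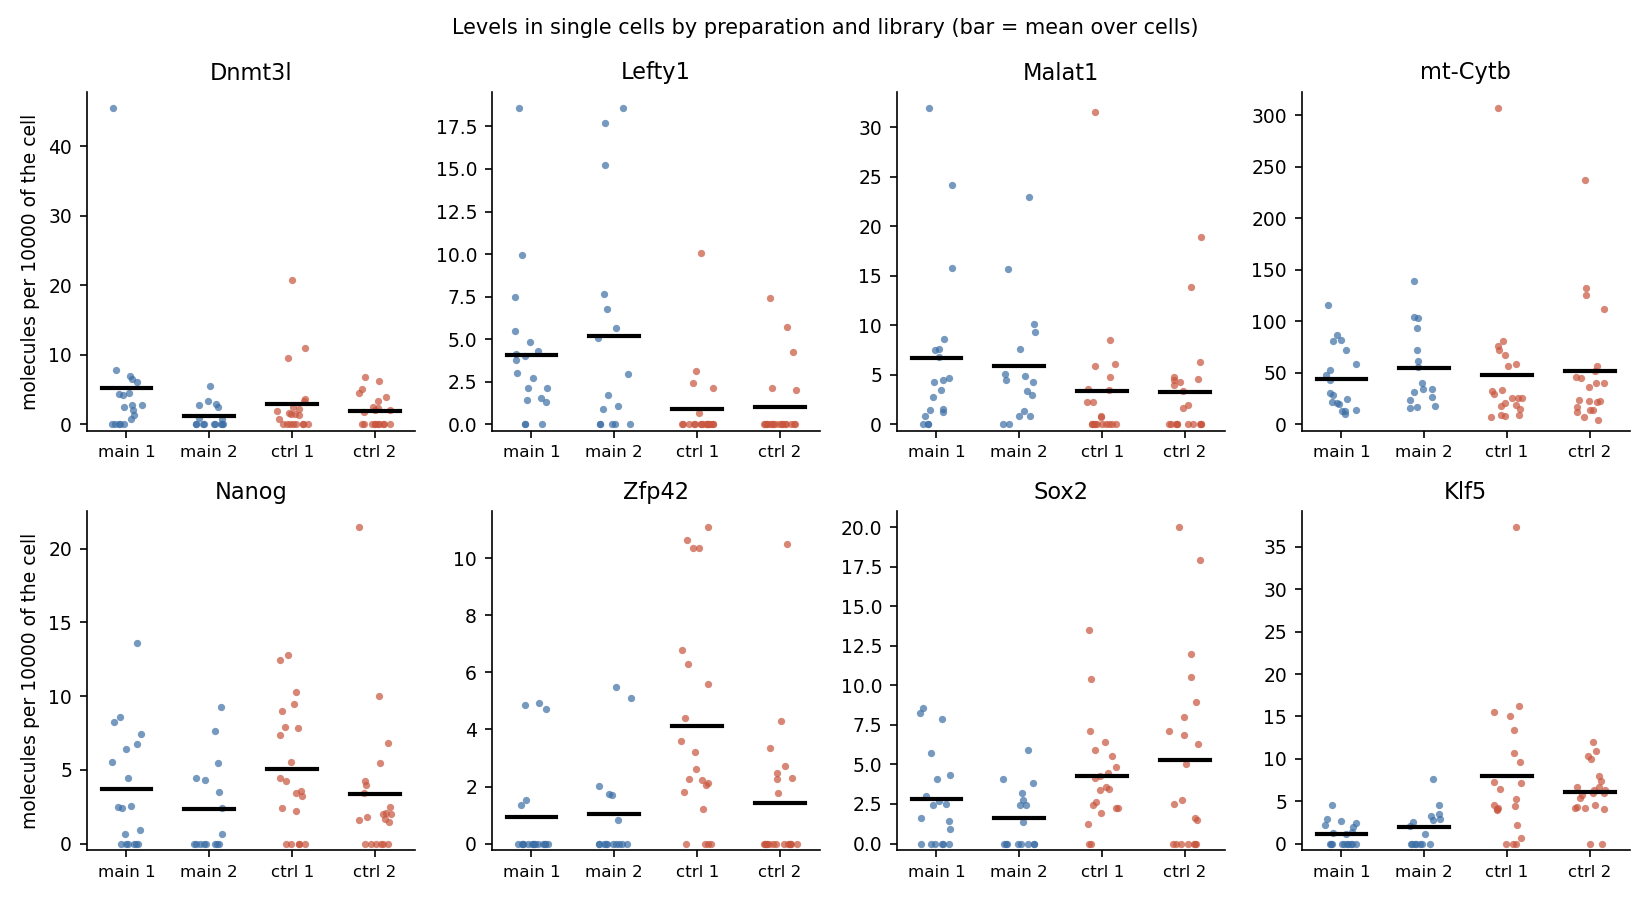
Level of 8 genes in each kept main and control cell, in molecules per 10000 molecules on genes, by library, with the bar at the mean over the cells of a library. Lefty1 was seen in 27 of 35 main and 10 of 42 control cells, and mt-Cytb reached 308 in 1 control cell against 139 at most in main cells.

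The genes with the smallest adjusted p differed between the preparations. In main cells they were C430014B12Rik, mt-Tr, mt-Tf, Gm26917, Dnmt3l, Khdc3, mt-Tl1 and Mtus2, several of them resting on 1 cell: 4 of 5 molecules of C430014B12Rik lay in the cell of 1077 molecules, 21 of 25 of mt-Tr and 11 of 19 of Khdc3, an oocyte and embryo gene, in 1 cell each. In control cells they were Dusp6, mt-Co2, mt-Tl2, mt-Cytb, mt-Nd4, Wdr1, Sparc and mt-Tm. The mitochondrial mRNA mt-Cytb had a CV2 of 1.47 in control cells (Brennecke test, adjusted p = 1.72e-19) and 0.494 in main cells (0.331), and its level per cell ran from 3.98 to 308 in control and from 10.4 to 139 in main cells. Dusp6 was seen in 19 control cells and had 8 of 41 molecules in 1 cell and its highest normalized value in a cell of 1437 molecules (adjusted p = 1.02e-19), while it was too low in main cells to be tested. In control cells of at least 2000 molecules Dusp6 was not called (CV2 2.39, Brennecke test, adjusted p = 0.130), nor without library 2 (adjusted p = 1.00). Wdr1, an actin-disassembly cofactor, had a CV2 of 3.56 in control cells (adjusted p = 1.41e-12) and 3.02 in main cells (adjusted p = 1). Sparc, a matrix protein gene and marker of primitive endoderm, gave only 17 molecules in 9 control cells, 6 of them in 1 cell.

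Over the 1659 genes tested in both preparations the median CV2 was 1.40 in main and 1.45 in control cells. The excess of CV2 over Poisson noise had a median of 0.0516 in main and 0.107 in control cells, and was higher in control cells for 914 genes and lower for 745. At normalized means above 20 molecules the medians were 0.0601 and 0.0607, and at means of 2 to 5 they were 0.0900 and 0.144. The preparations thus differed in this excess at lower means and hardly at the highest. The median difference in excess, control minus main, was 0.0524 with all cells, 0.000273 without library 2 of each preparation and 0.118 without library 1.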

How the data were processed

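Per-cell files of the polyadenylation sites of 96 ESC-FCS cells were analysed, with those of the ESC-2i cells and of 1 ESC-FCS pool as reference. The files hold molecule counts (unique molecular identifiers) and read counts per site. According to the methods and labels the authors had made these counts, as deposited, by mapping reads with GSNAP to GRCm38 with ERCC sequences, counting with HTSeq and R 3.0.2, filtering reads by uniqueness, mapping quality, length and A content, merging molecular identifiers at 1 mismatch and sites within 12 nt, and assigning sites to genes up to a set distance downstream. Every deposited column used belonged to a sample (0 columns unassigned).

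Here molecules were summed per Ensembl gene without antisense sites, and cells with under 1000 molecules were left out. Libraries held 88516 to 134519 molecules, which sets the counting error. Levels are molecules per 10000 molecules on genes. A gene needed 50 molecules over both preparations and was called at 2-fold without overlap of libraries. Intervals are exact (95%, Poisson, binomial or conditional on the sum), a level of 0 was bounded by 3 counts, and thinning used seed 7. Variation was tested with the Brennecke model on ERCC noise with a CV2 margin of 0.25 and a normalized mean above 0.5. The fits were tested on simulated data. Transcript lengths, GC content and sequences came from GENCODE M21 on GRCm38. Python 3.11.15, numpy 2.4.6, pandas 2.3.3, scipy 1.17.1, matplotlib 3.10.9, R 4.3.3 and edgeR 4.0.16 (TMM factors only) were used.

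Named genes were the 12 largest and 12 smallest ratios among calls in which no cell held over 25% of the molecules, from each list the 2 largest and 2 smallest ratios, and in the variation test the 8 smallest adjusted p per preparation, the genes called in both, and Nanog, Zfp42, Lefty1, Dnmt3l and Sox2. Members and lists were chosen with earlier results of these data known. Alternatives covered scaling, count filters, thresholds, depth limits, read counts and left-out libraries. Some genes and sequences that these rules select are not reported here.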

Additional observations from a re-analysis of the deposited data

How the results depend on the processing

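The count of 339 genes past 2-fold was 326 to 363 with other scalings or cell weights, all cells or deeper cells only. It was 966 with a minimum of 20 molecules, 49 with 200, 3451 with no minimum, 691 at 1.5-fold and 212 to 320 with a library or the largest cells left out, where 212 was the count without control library 1. After the length and GC adjustment, chosen after seeing the data, it was 211, of which 159 were among the 339, with 108 higher and 103 lower. Of 1318 alternative values for 64 named genes, 1272 lay within the counting interval of the gene, 46 lay outside it, and 0 calls changed sign. Count minimums, the fold threshold and leaving other genes out of the comparison do not alter a gene's own ratio. Values under those settings therefore lay within the interval by construction. That interval covers counting error only and is wide for genes of few molecules. The count of values within it therefore does not measure the spread between libraries. Several named calls lost the fold when a single library was left out, as given above.

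List medians relative to all genes moved as follows. With read counts they were 0.65 for Nodal and Lefty signalling, 0.65 for ERK targets, 0.63 for LIF and BMP targets, 0.99 for glycolysis, −0.77 for the mitochondrial genome, −0.51 for G2 and M phase, 0.15 for actin and cytoskeleton and 0.35 for long noncoding RNAs. With 20 molecules they were −0.36 for Nodal and Lefty, 0.86 for ERK and 0.29 for LIF and BMP targets, and with 200 molecules 0.29 for stem cell markers. With no minimum they were 0.30 for ERK targets, 0.74 for immediate early genes and 0.10 for actin and cytoskeleton. Equal cell weights gave 0.01 (0.0062) for ATF4 targets, and all 48 cells 0.33 and last-exon sites −0.46 for LIF and BMP targets. After the length and GC adjustment they were −0.22 for Nodal and Lefty, 0.83 for ERK targets, 0.30 for p53 targets, 0.06 (0.063) for metallothionein and iron storage, −0.06 (−0.057) for ribosomal proteins, −1.05 for the mitochondrial genome, −0.32 for the respiratory chain and −0.46 for G2 and M phase.

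With a library or the largest cells left out, list medians ran from 0.05 (0.046) to 0.57 for naive pluripotency, −0.49 to 0.25 for core and formative pluripotency, −0.86 to 0.28 for Nodal and Lefty, −0.25 to 0.50 for ATF4 targets, 0.40 to 0.93 for p53 targets, −0.49 to 0.64 for cholesterol synthesis, −0.62 to −0.19 for the mitochondrial genome, −0.14 to 0.26 for G2 and M phase and −0.23 to 1.11 for long noncoding RNAs, and stood at −0.42 for LIF and BMP targets. The direction thus depended on single libraries in several small lists: core and formative (main or control library 1), Nodal and Lefty (all 4), ATF4 (control library 2), cholesterol (main library 1), G2 and M phase (main or control library 1) and long noncoding RNAs (all 4).

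The share of genes past 2-fold between control and main libraries, 21.4%, was 28.4% with 20 molecules and 48.6% with read counts. Within the main preparation it was then 12.8 and 42.0%, and within the control preparation 9.85 and 29.9%. The median difference in genes per cell of 11.5 was −224.5 without thinning, and the cell-pair correlation of 0.359 was 0.524 without the log and 0.504 without thinning.

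The 76 genes variable among main cells were 124 with Poisson noise, 212 without a margin, 19 at means above 1, 145 with median-ratio factors, 44 in cells of at least 2000 molecules, and 84 to 264 with a library left out (264 without library 1). The 111 in control cells were 350 without a margin, 52 with a margin of 0.5, 53 at means above 1, 175 with median-ratio factors and 38 to 123 with a library left out (38 without library 1). The causes were not tested. The median difference in excess of CV2 over Poisson noise ran from 0.000273 to 0.118 with a library left out. No paired analysis was possible because cell numbers in the labels only name cells and no test was made between preparations. Genes under 50 molecules could not be compared at this depth, and 1 sample per preparation leaves the spread between cultures unknown.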
